A study of Mus musculus with 5 samples.

Results

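The cells described here were spleen plasma cells that carried IgM, stained negative for the fluorescent glucose analog 2NBDG and were not cycling by their RNA, and the question was how those sorted as B220+ differed from those sorted as B220-. A cell was taken when it had at least 10 UMIs (unique molecular identifiers, 1 per captured RNA molecule) over 7 heavy-chain constant genes, at least 70% of them from Ighm, and at most 2 UMIs over 10 cycling genes (Mki67, Top2a, Birc5, Cdk1, Ccnb1, Ccnb2, Rrm2, Ube2c, Cdc20 and Aurka). By this rule 605 of the 1222 cells of the B220+2NBDG- library were members (49.5%, exact 95% binomial interval 46.7 to 52.4%), and 1071 of the 1296 cells of the B220-2NBDG- library (82.6%, 80.5 to 84.7%). Together they were 1676 of the 5476 cells of the series.

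Both libraries came from spleens of untreated, unimmunized male C57Bl6/N mice aged 8 to 12 weeks, with the tissue of 3 mice pooled in each sample. The cells had a CD138-high, Ly6g-, CD11c- surface, were sorted in 2 rounds by B220 and by 2NBDG uptake, and were counted by droplet 3' single-cell RNA sequencing. The other 3 libraries held plasma cells of mice of the same description: B220+2NBDG+ of the spleen, where the same rule found 436 cells, B220-2NBDG+ of the spleen, where it found 558, and B220-2NBDG+ of the bone marrow, where it found 294. These are given below in that order when they are called the other 3 libraries. Each group was 1 pooled library, so no difference between groups had a replicate check; the intervals below cover counting error only, and no test was made.

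B220 is the form of the phosphatase CD45 found on B cells, and it is lost as activated B cells turn into plasma cells. Plasma cells that still carry it are often regarded as younger or shorter-lived than those that have lost it. The same step of differentiation shuts down MHC class II, the pair of surface chains that presents peptides to helper T cells, because the plasma cell factor Blimp-1 (Prdm1) silences the coactivator CIITA (Ciita). CIITA binds no DNA itself: it is held at class II promoters by factors bound to the neighbouring X and Y boxes, of which the Y box is a CCAAT-type element bound by NF-Y.

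Class II had the highest median ratio of the gene lists compared, so the promoters of the 5 members called higher that had a Y box match are shown. Each line gives 100 bases on the strand of the gene, from the RefSeq promoter table on GRCm38.p6, with the letters searched, TGATTGG, in capitals.
H2-Aa, chr17:34287834-34287933, minus strand: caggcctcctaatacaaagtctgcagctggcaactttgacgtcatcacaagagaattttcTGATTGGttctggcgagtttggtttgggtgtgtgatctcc
H2-Eb1, chr17:34305746-34305845, plus strand: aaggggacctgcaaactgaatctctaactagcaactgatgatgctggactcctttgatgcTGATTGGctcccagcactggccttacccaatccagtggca
H2-DMb1, chr17:34153068-34153167, plus strand: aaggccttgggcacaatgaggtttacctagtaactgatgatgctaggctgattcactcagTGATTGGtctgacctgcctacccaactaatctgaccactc
H2-DMb2, chr17:34145097-34145196, plus strand: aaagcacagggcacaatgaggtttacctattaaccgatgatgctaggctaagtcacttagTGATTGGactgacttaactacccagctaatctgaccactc
H2-Ob, chr17:34238786-34238885, plus strand: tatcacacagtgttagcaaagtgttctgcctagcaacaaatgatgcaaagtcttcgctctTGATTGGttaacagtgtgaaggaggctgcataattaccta
The match began 50 bases before the gene's start in H2-Aa, 61 in H2-Eb1, 63 in H2-DMb1, 92 in H2-DMb2 and 59 in H2-Ob. Searched on both strands from 250 bases before to 50 after the start, 7 of the 11 class II list genes with a window held these letters (63.6%), against 2431 of the 27025 genes in the table; counted by window it was 2568 of 32851 (7.82%). The 2 not printed, H2-Eb2 and H2-Oa, had too few UMIs to test. H2-DMa, Ctss, Ifi30 and Lgmn had no match in this window, and H2-Ab1 is named only. Among genes called by the rule below, 21 of the 105 higher ones with a window held the letters (20.0%) and 4 of the 59 lower ones (6.78%), against 13.2% of the genes tested. The 21 include the class II genes printed above, so this share partly repeats the class II count. A match is a description of these letters and not of bound protein.

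Members had a median of 9504 UMIs in the B220+2NBDG- library and 9952 in the B220-2NBDG- library. Over all members, 54.2% and 64.8% of UMIs came from immunoglobulin genes. Ighm made up 17.7% and 13.7% of all UMIs, the kappa constant gene Igkc 34.2% and 36.1%, and kappa variable gene segments 0.561% and 6.35%. All levels below are therefore given in CPM, a gene's UMIs summed over the members and scaled to 1000000 non-immunoglobulin UMIs of the same cells, of which there were 2633544 and 4081863. The plasma cell label held: Jchain, Xbp1, Sdc1 and Prdm1 were present in both libraries, and Pax5 had 0 UMIs in both. The 10 B cell markers summed to 2718 CPM in B220+2NBDG- and 2545 CPM in B220-2NBDG- cells, most of it from Cd79a and Cd79b. Single B cell markers went both ways: Fcmr was higher in B220+2NBDG- cells, and Ms4a1 and Bank1 were on the lower side. T cell markers summed to 53.9 and 20.8 CPM, most of it from Cd3g, with Trac, Trbc1, Cd4, Cd8a and Themis at 0 in the B220+ library and Cd3e, Cd8a, Ms4a4b and Themis at 0 in the B220- library. Without the cells that held at least 2 T cell marker UMIs, 150 genes were called higher and 91 lower by the rule given below. With those cells it was 152 and 89. Macrophage markers summed to 44.4 and 25.7 CPM, and 6 of the 11 were at 0 UMIs in each library, Adgre1 and C1qa in both. Most of the sum was Cd68, with 38.0 and 24.0 CPM, and C1qb had 11 UMIs in the B220+ and 1 in the B220- library. The part of the macrophage markers in the results was not tested. The libraries shared between 0 and 4 barcodes per pair.

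The 5 libraries also divided in a way that their labels did not describe. In 19 genes the B220+2NBDG- and splenic B220-2NBDG+ libraries lay on one side, at least 2-fold from the other 3. Nme2, for example, had 19.0 CPM in B220+2NBDG- and 273 CPM in B220-2NBDG- cells, with 194 CPM in B220+2NBDG+, 49.8 CPM in splenic B220-2NBDG+ and 188 CPM in bone marrow cells. UMIs of kappa variable gene segments divided in the same manner, with a median per member of 47 in B220+2NBDG- and 564 in B220-2NBDG- cells, and of 486, 119.5 and 535.5 in the other 3 libraries. Rps18-ps3, mt-Atp8, Wdr89 and Atp5g2 were also among the 19. A gene that divides like this cannot be told apart from a B220 difference within the 2NBDG- pair. Counts below include them except where they are said to be left out, and none of them is described as a B220 difference.

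Members were chosen by their heavy-chain and cycling UMIs, so those values describe the choice. IgM cells past the cycling limit were 105 of 710 in the B220+2NBDG- library (14.8%, 12.3 to 17.6%) and 9 of 1080 in the B220-2NBDG- library (0.833%, 0.382 to 1.58%). The limit itself was sparsely populated: 37 B220+ and 9 B220- members had exactly 2 cycling UMIs, and 14 and 0 cells lay just outside with 3. Members still differed on the 10 genes, which summed to 80.9 CPM in B220+2NBDG- and 26.9 CPM in B220-2NBDG- cells. With 0 such UMIs required, 429 and 970 cells were left. The share of heavy-chain UMIs from Ighm was far from its limit, with 1 cell on each side between 70 and 80%, and 1 B220+ and 0 B220- cells between 60 and 70%.

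A gene was called when its CPM differed at least 2-fold and the higher library had at least 25 CPM and 50 UMIs. Of 3885 genes tested, 152 were called higher in B220+2NBDG- cells (3.91%) and 89 lower (2.29%), which included 8 and 11 of the 19 genes that divided the libraries. Without those, 144 genes were higher (3.72%) and 78 lower (2.02%). The median log2 ratio (B220+ over B220-) of all tested genes was 0.18, and 67.1% lay above 0. The split of calls followed the total that levels were scaled by. Scaled to all UMIs it was 327 higher and 23 lower, without Jchain in the total 99 and 179, with edgeR's TMM factors 112 and 112, and with median-of-ratios factors 115 and 110. These scalings moved the median of all genes by 0.38, -0.18, -0.11 and -0.10 in that order. Jchain, the joining chain of secreted IgM, was itself 14.6% of the B220+ and 24.9% of the B220- total. The total of all UMIs also held the kappa variable UMIs, which divided the libraries as described above.

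**Figure D1:**
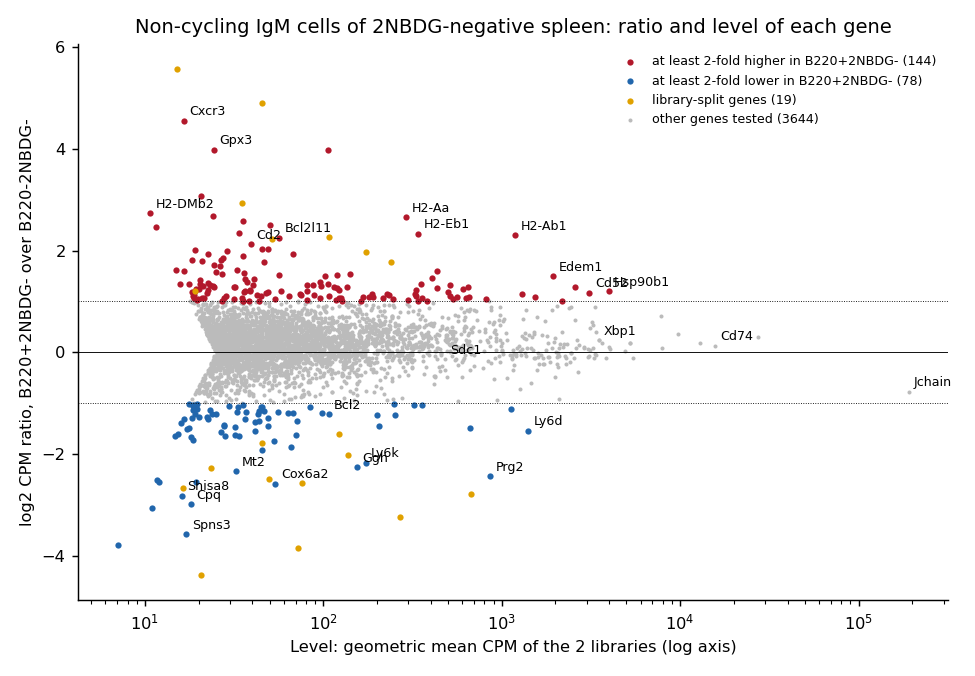
Ratio of B220+2NBDG- to B220-2NBDG- members (log2, vertical axis) against mean level (CPM, log axis), 1 point per gene tested. The class II genes H2-Aa, H2-Ab1 and H2-Eb1 lie above 2-fold, with log2 ratios of 2.65, 2.30 and 2.33, and Ly6d, Prg2 and Ggh lie below, with -1.54, -2.43 and -2.26.

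The 3 class II chains H2-Aa, H2-Ab1 and H2-Eb1 were higher in B220+ cells. H2-Aa, the alpha chain of I-A (ENSMUSG00000036594, 17:34282744-34287823, minus strand), had 729 CPM in B220+2NBDG- and 116 CPM in B220-2NBDG- cells. It had 373 CPM in B220+2NBDG+, 58.1 CPM in splenic B220-2NBDG+ and 46.6 CPM in bone marrow cells. Both B220+ libraries were above all 3 B220- libraries. The share of all tested genes that parted the libraries in this way is not given. Such an order, here and for the genes below, therefore describes each gene alone. The ratio in the 2NBDG- pair was 6.26 (95% counting interval 5.66 to 6.94), from 1919 and 475 UMIs.

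H2-Ab1, the beta chain of I-A, had 2638 CPM in B220+2NBDG- and 536 CPM in B220-2NBDG- cells, and 1765, 421 and 342 CPM in the other 3 libraries. H2-Eb1, the beta chain of I-E, had 761 and 151 CPM in the 2NBDG- pair and 393, 86.9 and 124 CPM in the other 3 libraries in the same order. Neither gene overlapped between B220+ and B220- libraries. The ratios were 4.92 (4.69 to 5.17) for H2-Ab1 and 5.04 (4.61 to 5.53) for H2-Eb1, and the log2 ratios in the 2NBDG+ pair, which shares no library with the first, were 2.07 and 2.18.

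The genes that load peptide followed unevenly. H2-DMb2, a beta chain of the peptide exchange factor H2-M, had 27.7 CPM in B220+2NBDG- and 4.16 CPM in B220-2NBDG- cells, a ratio of 6.66 (3.89 to 12.0) on 73 and 17 UMIs. H2-DMb1, its near-identical neighbour, with which reads could be shared, had 67.2 and 24.7 CPM (2.72, 2.12 to 3.50). H2-Ob, the beta chain of H2-O, which restrains H2-M, had 123 and 53.2 CPM (2.31, 1.94 to 2.76). Both B220+ libraries were above all 3 B220- libraries for H2-DMb1 and H2-Ob, and for H2-DMb2, which had 7.83 CPM in B220+2NBDG+ cells. H2-DMa, the partner alpha chain, was not called, with 90.4 CPM in B220+2NBDG- and 58.6 CPM in B220-2NBDG- cells.

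Proteins that act on class II cargo in the endosome did not move as a set. Ifi30, a thiol reductase, had 42.9 CPM in B220+2NBDG- and 14.5 CPM in B220-2NBDG- cells, and Lgmn, the endopeptidase legumain, had 487 and 225 CPM; both were called higher. Ctss, cathepsin S, which trims the invariant chain, was called lower, with 767 CPM in B220+2NBDG- and 1651 CPM in B220-2NBDG- cells (2.15-fold lower, 2.05 to 2.26). The invariant chain Cd74 itself had 16326 and 14963 CPM, a log2 ratio of 0.13, and 13423, 12838 and 15579 CPM in the other 3 libraries. It was high in every library, including those where the class II chains were low. Ciita had 1 and 0 UMIs, too few to read.

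Of the 14 class II list genes, 11 had enough counts to test; 8 were called higher and 1 lower, and the median log2 ratio was 1.44, beside 0.18 for all genes. In the 2NBDG+ pair 5 of 9 were higher and 0 lower, with a median of 1.25 beside 0.08. The median was 1.82 scaled to all UMIs, 1.26 without Jchain and 1.34 with TMM. Among the 346 B220+ and 446 B220- members with no UMI of a B cell marker, the log2 ratios were 2.20 for H2-Aa, 1.92 for H2-Ab1 and 2.01 for H2-Eb1, against 2.65, 2.30 and 2.33 in all members.

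Class II RNA also lay differently over single cells. Members were thinned to 2000 non-immunoglobulin UMIs each, which left out 75 B220+ and 162 B220- cells of lower depth. The 10% of cells with most H2-Aa UMIs held 48.7% of 752 H2-Aa UMIs in the B220+2NBDG- library and 87.2% of 195 in the B220-2NBDG- library. For H2-Ab1 the shares were 35.2% and 43.6%, and for H2-Eb1 38.8% and 59.1%. Such a share grows as a gene becomes sparser, so it describes the counts and not a type of cell. No 1 cell carried the difference: the highest H2-Aa cell had 24 UMIs in the B220+ and 11 in the B220- library.

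**Figure D2:**
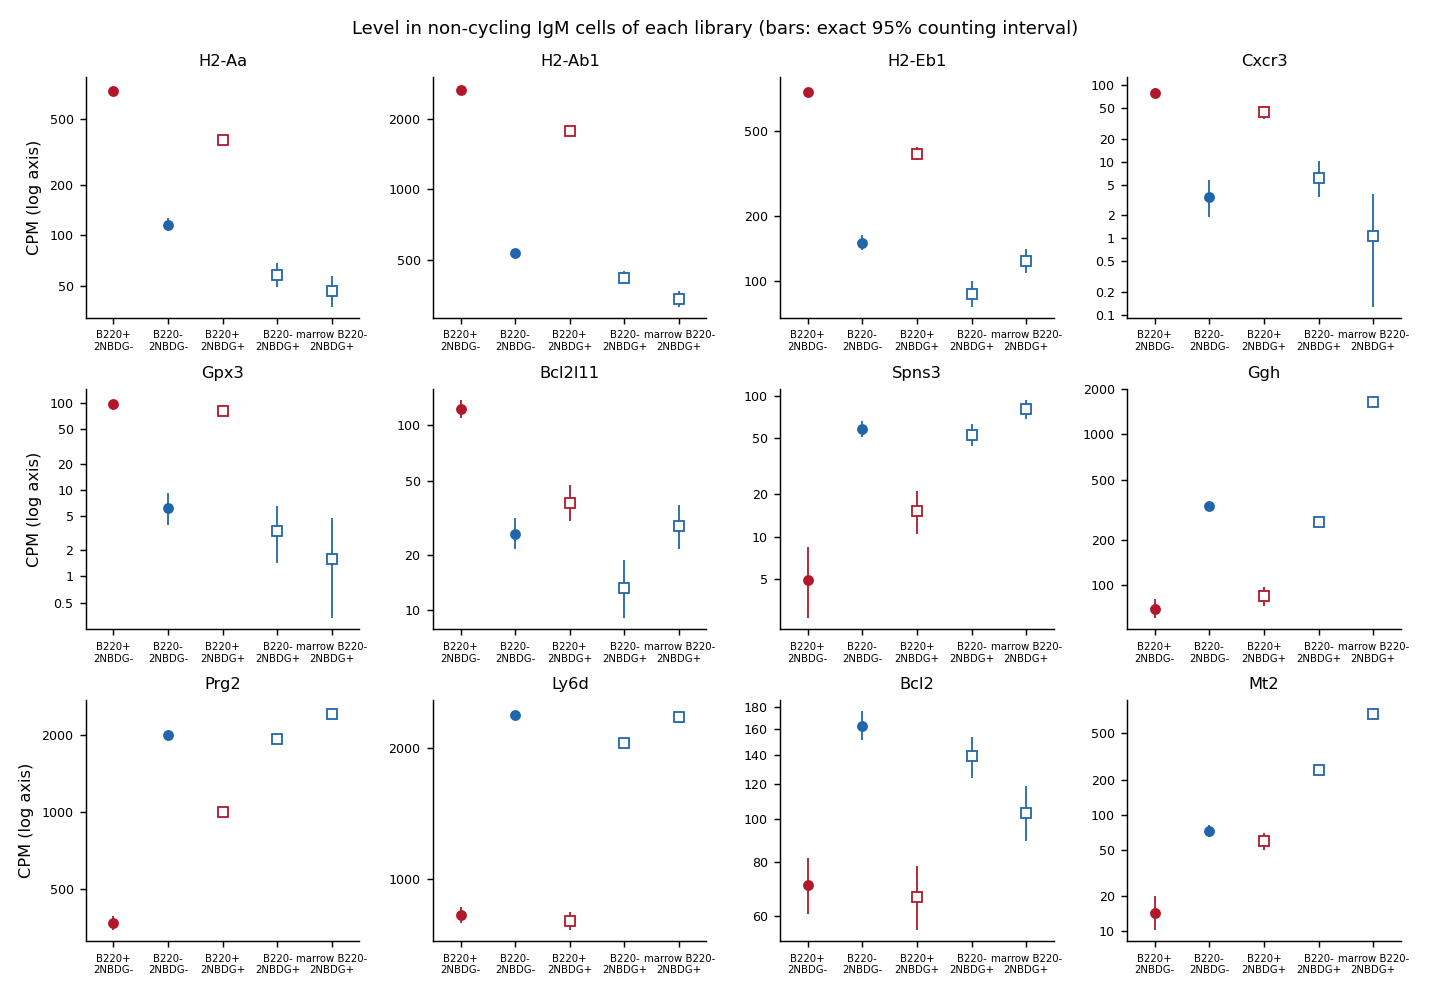
Levels of 12 genes (CPM of non-immunoglobulin UMIs, log axis) in non-cycling IgM cells of the 5 libraries, with exact 95% counting intervals. Filled circles are the 2NBDG- spleen pair, open squares the other libraries, red B220+ and blue B220-. H2-Aa, H2-Ab1, H2-Eb1, Cxcr3 and Gpx3 are higher in both B220+ libraries than in all 3 B220- libraries, and Ggh, Prg2, Spns3, Ly6d, Bcl2 and Mt2 are lower.

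MHC class I, which presents peptides to cytotoxic T cells, showed a smaller difference. The class I heavy chain H2-K1 had 3096 CPM in B220+2NBDG- and 1539 CPM in B220-2NBDG- cells, a ratio of 2.01 (1.95 to 2.08). H2-Q7, a nonclassical class I chain, had 562 and 220 CPM (2.55, 2.34 to 2.77). The class I heavy chains are near-identical over parts of their length, so the counts of one can include another. Their partner B2m had 13727 and 12079 CPM, a log2 ratio of 0.18. Of 13 class I genes tested, 4 were called higher (H2-Q7, Erap1, H2-T23 and H2-K1) and 0 lower, and the median log2 ratio was 0.80. Without Jchain in the total 1 was called higher, with TMM or median-of-ratios factors 2, and scaled to all UMIs 7. H2-K1 and H2-T23 lay close to 2-fold and fell short of it with TMM factors, at log2 ratios of 0.90 and 0.95. In the 2NBDG+ pair 0 of 13 were called, and the median was 0.35.

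Cxcr3 gave the highest ratio of all genes called outside the 19. It encodes the receptor for the interferon-induced chemokines CXCL9, CXCL10 and CXCL11 (ENSMUSG00000050232, X:101731535-101734269, minus strand). It had 80.1 CPM in B220+2NBDG- and 3.43 CPM in B220-2NBDG- cells, with 44.2 CPM in B220+2NBDG+, 6.18 CPM in splenic B220-2NBDG+ and 1.06 CPM in bone marrow cells. Both B220+ libraries were above all B220- libraries. The ratio was 23.4 (13.6 to 43.5), from 211 and 14 UMIs. Other receptors of this kind were low or close: Ccr10, a mucosal homing receptor of plasma cells, had 16.3 CPM in B220+2NBDG- and 13.2 CPM in B220-2NBDG- cells, and Cxcr4, the receptor for the marrow chemokine CXCL12, 10.3 and 9.55 CPM. Of 12 chemokine receptor and adhesion genes tested, 1 was called higher, Cxcr3, and 1 lower.

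Gpx3, a secreted glutathione peroxidase (ENSMUSG00000018339, 11:54902453-54910377, plus strand), came next among genes with a known protein. It had 96.4 CPM in B220+2NBDG- and 6.12 CPM in B220-2NBDG- cells, and 81.5, 3.30 and 1.59 CPM in the other 3 libraries. The B220+ libraries were close to each other and far above the rest. The ratio was 15.7 (10.4 to 24.8). Fgl2, a secreted fibrinogen-like protein, had 61.1 and 9.55 CPM in the 2NBDG- pair (6.40, 4.49 to 9.33), but 25.5 CPM in splenic B220-2NBDG+ cells, so the libraries were less clearly parted. Ncapg, a condensin subunit used in mitosis and not among the 10 cycling genes, had 27.0 and 4.90 CPM (5.50, 3.31 to 9.54). Cd2, an adhesion molecule of lymphocytes, had 82.0 CPM in B220+2NBDG- and 18.9 CPM in B220-2NBDG- cells (4.35, 3.34 to 5.72). Of the 10 highest ratios, 4 belonged to predicted or pseudogene entries, among them Gm15013 with 418 and 26.7 CPM and Gm10126 with 158 and 29 UMIs; their reads may be shared with near-identical copies.

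The B cell surface list was mixed. Ptprc, which encodes CD45 in all its forms and so does not separate B220 in 3' counts, had 80.1 CPM in B220+2NBDG- and 57.6 CPM in B220-2NBDG- cells, a ratio of 1.39 (1.15 to 1.68), and 51.6, 41.6 and 42.9 CPM in the other 3 libraries. Fcmr, the Fc receptor for IgM, had 158 and 73.0 CPM (2.16, 1.86 to 2.52), and was 1.63 on the log2 scale in the 2NBDG+ pair. Cd52, a small glycoprotein of mature lymphocytes, had 4651 CPM in B220+2NBDG- and 2072 CPM in B220-2NBDG- cells, but 5705 CPM in bone marrow cells, above both B220+ libraries. Cd79a and Cd79b, the signalling chains of the B cell receptor, were close, at 1431 and 1344 CPM and at 896 and 756 CPM. Ms4a1, which encodes CD20, was on the lower side with 146 CPM in B220+2NBDG- and 251 CPM in B220-2NBDG- cells, without passing the rule. Of 25 genes tested 3 were higher (Cd2, Cd52 and Fcmr) and 1 lower (Ly6d), and of 13 B cell transcription factors tested 0 passed in either direction.

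Ly6d, a GPI-anchored protein known as a marker of early B lineage commitment, was the abundant exception in this list. It had 824 CPM in B220+2NBDG- and 2391 CPM in B220-2NBDG- cells (2.90-fold lower, 2.77 to 3.04). B220+2NBDG+ cells had 798 CPM, and splenic B220-2NBDG+ and bone marrow cells 2059 and 2364 CPM. Levels were alike within B220+ and within B220- libraries and did not overlap between them. Ly6k, another member of that family, had 81.3 and 366 CPM in the 2NBDG- pair (4.50-fold lower, 3.90 to 5.22), and 68.2, 435 and 1171 CPM in the other 3 libraries. Ly6c2 was close, with a log2 ratio of -0.35. Of 5 Ly6 genes tested 2 were lower, and in the 2NBDG+ pair 3 of 6.

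Plasma cell identity genes were largely close. Sdc1, which encodes the sorting marker CD138, had 458 CPM in B220+2NBDG- and 503 CPM in B220-2NBDG- cells, the transcription factor Xbp1 3790 and 3218 CPM, Prdm1 45.2 and 52.7 CPM, and Irf4, another factor of plasma cell fate, had a log2 ratio of -0.11. The receptors for the survival factors BAFF and APRIL, Tnfrsf17 and Tnfrsf13b, had 283 and 346 CPM and 342 and 385 CPM. Jchain had 146491 CPM in B220+2NBDG- and 249050 CPM in B220-2NBDG- cells (1.70-fold lower, 1.69 to 1.71), against 223231, 252991 and 217389 CPM in the other 3 libraries, so that B220+2NBDG- stood alone. Mzb1, a chaperone of IgM assembly, had 10059 and 6103 CPM, below the rule at a ratio of 1.65 (1.62 to 1.68). Of 31 genes of the list tested, 4 were higher and 5 lower, with a median log2 ratio of -0.04. The higher ones were Pon3, a paraoxonase (748 CPM in B220+2NBDG- and 331 CPM in B220-2NBDG- cells), Eaf2, an elongation factor partner (955 and 450 CPM), Fkbp11 and Edem1. The lower ones were Prg2, Ggh, Cpq and Spns3, described below, and Ly6k, described above with Ly6d. Part of this list was taken from earlier results of these data.

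Dynlt1b, Spns3, Rnasek, Cpq, Shisa8, Cox6a2, Crisp3, Mgll and Prg2 were among the 10 lowest ratios. Spns3, a member of the sphingolipid transporter family (ENSMUSG00000020798, 11:72494919-72550506, minus strand), had 4.94 CPM in B220+2NBDG- and 58.8 CPM in B220-2NBDG- cells, and 15.2, 53.1 and 80.6 CPM in the other 3 libraries. It was low in both B220+ libraries, and the difference in the 2NBDG- pair was 11.9-fold (6.83 to 22.7). Cpq, a secreted carboxypeptidase, had 6.46 and 51.0 CPM (7.89-fold lower, 4.81 to 13.8), with 20.7, 61.8 and 126 CPM in the other libraries.

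Prg2, known as the major basic protein of eosinophil granules, had 370 CPM in B220+2NBDG- and 1998 CPM in B220-2NBDG- cells, and 998, 1934 and 2400 CPM in the other 3 libraries. The B220- libraries were close to each other and above both B220+ libraries. The difference was 5.40-fold (5.05 to 5.78). Ggh, a lysosomal hydrolase of folate polyglutamates, had 70.2 and 336 CPM in the 2NBDG- pair (4.79-fold lower, 4.10 to 5.61), and 84.8, 264 and 1641 CPM in the other 3 libraries, with bone marrow far above the spleen. Mgll, a lipase of monoacylglycerols, had 4.94 and 27.9 CPM, and Shisa8, a Shisa family membrane protein, 6.08 and 42.9 CPM. Dynlt1b, a dynein light chain with near-identical copies beside it, had 1.90 CPM in B220+2NBDG- and 26.2 CPM in B220-2NBDG- cells, and Rnasek, which encodes ribonuclease kappa, 3.80 and 31.4 CPM. Both were also low in splenic B220-2NBDG+ cells, at 2.47 and 4.12 CPM, as were 11 of the 19 genes. Cox6a2, a subunit of cytochrome c oxidase known from muscle and plasmacytoid dendritic cells, had 22.0 CPM in B220+2NBDG- and 132 CPM in B220-2NBDG- cells. The 8 markers of plasmacytoid dendritic cells, Cox6a2 among them, summed to 1172 and 1313 CPM. Ly6c2 was the highest of them, with 591 and 751 CPM, and Siglech had 0 UMIs in both libraries. The part of these markers in the result was not tested. Crisp3, a secreted cysteine-rich protein, had 13 UMIs in B220+2NBDG- and 118 UMIs in B220-2NBDG- cells, and 2, 2 and 3 UMIs in the other libraries.

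The metallothionein Mt2, which binds zinc and copper, was called lower in B220+ cells of both pairs. The gene (8:94172664-94173568, plus strand) had 14.4 CPM in B220+2NBDG- and 72.8 CPM in B220-2NBDG- cells (5.04-fold lower, 3.59 to 7.27), and 59.0, 241 and 733 CPM in the other 3 libraries. Mt1 had 131 and 181 CPM in the 2NBDG- pair, which did not pass the rule, and 148, 494 and 2078 CPM in the others. For both genes bone marrow was the highest library. Of 14 metallothionein and redox genes tested, Gpx3 was higher, and Mt2 and Gclm, a subunit of the enzyme that starts glutathione synthesis, were lower. Lamp1, a protein of the lysosomal membrane, had 130 CPM in B220+2NBDG- and 306 CPM in B220-2NBDG- cells; with Ggh and Cpq it made up the 3 lower calls among 28 lysosomal genes tested, whose median log2 ratio was 0.06.

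Regulators of apoptosis were called in both directions. Bcl2l11, which encodes the death-promoting BIM, had 123 CPM in B220+2NBDG- and 26.0 CPM in B220-2NBDG- cells, and 38.2, 13.2 and 28.6 CPM in the other 3 libraries. It was highest in B220+2NBDG- cells, at a ratio of 4.75 (3.81 to 5.97). Bcl2, the survival protein that BIM binds (1:106538178-106714274, minus strand), had 70.6 and 163 CPM in the 2NBDG- pair (2.31-fold lower, 1.96 to 2.73), and 66.3, 139 and 103 CPM in the others. Both B220+ libraries were below all 3 B220- libraries. Mcl1, which sustains plasma cells, was close at 129 and 117 CPM, and Fas, the death receptor, had 50.5 and 24.3 CPM. Of 15 survival genes tested, Bcl2l11 and Fas were higher and Bcl2 was lower, with a median log2 ratio of -0.17. Among inhibitory receptors, Lag3 had 66.8 CPM in B220+2NBDG- and 121 CPM in B220-2NBDG- cells, short of the rule, and Fcer1g, the shared Fc receptor gamma chain, had 180 and 73.7 CPM and was the 1 of 7 called.

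**Figure D3:**
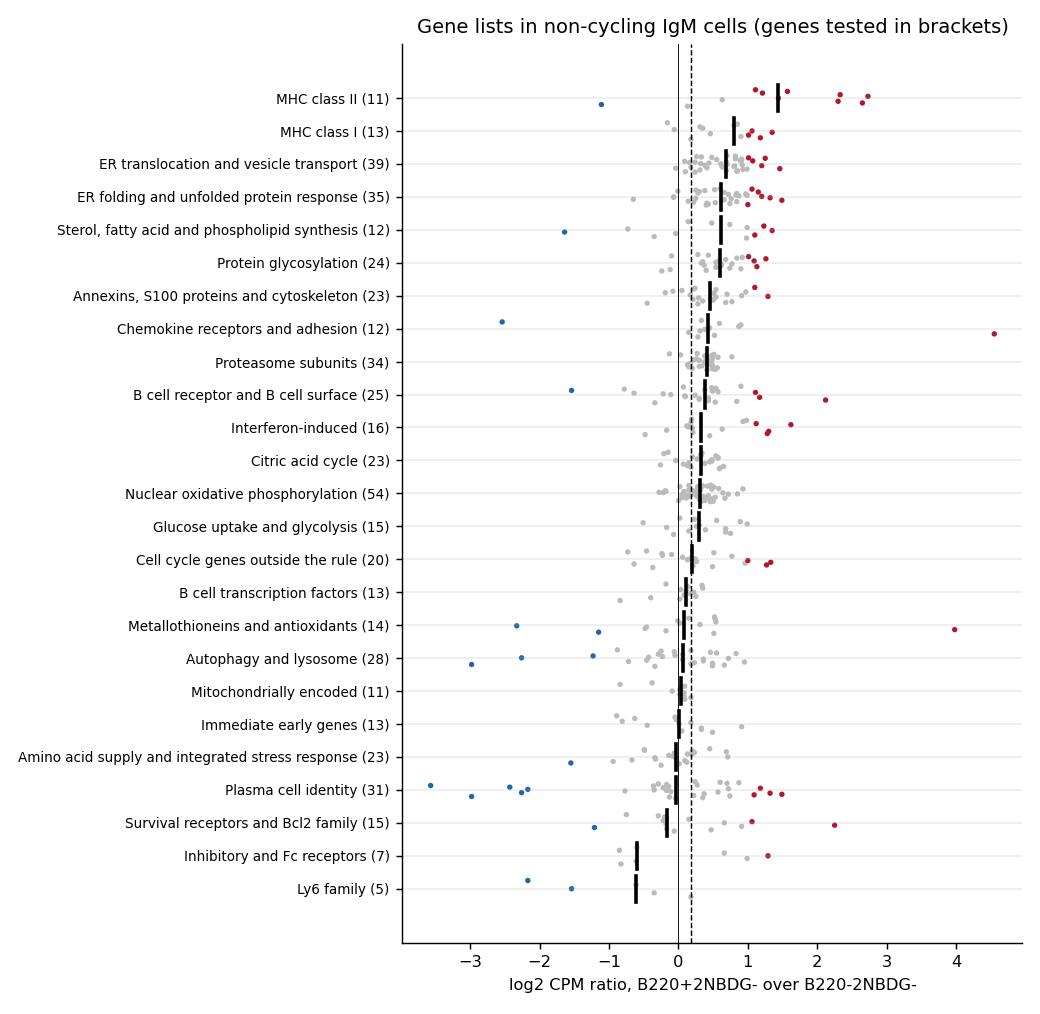
Log2 ratio of B220+2NBDG- to B220-2NBDG- members for each tested gene of the lists (dots), with the list median (black bar) and the median of all genes tested (dashed line, 0.18). MHC class II has the highest median, 1.44.

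Genes of the secretory pathway lay above the all-gene median together, mostly by less than 2-fold. Edem1, which directs misfolded glycoproteins to degradation, had 3252 CPM in B220+2NBDG- and 1160 CPM in B220-2NBDG- cells, a ratio of 2.80 (2.70 to 2.90), and 2279, 1434 and 1158 CPM in the other 3 libraries. Hsp90b1, the ER chaperone GRP94, had 6008 and 2622 CPM in the 2NBDG- pair (2.29, 2.24 to 2.35), and 3404, 2347 and 1631 CPM in the others. Both B220+ libraries were above all 3 B220- libraries for both genes. Hspa5, the chaperone BiP, had 3217 and 1755 CPM, at a ratio of 1.83 (1.78 to 1.89), and Calr, calreticulin, 1205 and 604 CPM; neither passed.

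Of 35 ER folding genes tested 5 were higher and 0 lower, 31 lay above 0, and the median log2 ratio was 0.62. Of 39 translocation and ER export genes 5 were higher and 0 lower, 38 lay above 0, and the median was 0.69. The cargo receptor Lman1 was the highest of these calls, with 675 CPM in B220+2NBDG- and 244 CPM in B220-2NBDG- cells (2.76, 2.55 to 2.99). Of 24 glycosylation genes 4 were higher and 0 lower, with a median of 0.60; Rpn1, a subunit of the oligosaccharyltransferase, had 672 and 280 CPM. In the 2NBDG+ pair the 3 medians were 0.31, 0.24 and 0.18, beside 0.08 for all genes. The counts and medians of the 2NBDG- pair followed the scaling. Scaled to all UMIs, 17, 22 and 10 genes of the 3 lists were higher, with medians of 0.99, 1.07 and 0.98 beside 0.56 for all genes. Without Jchain 3, 3 and 1 were higher, with medians of 0.43, 0.51 and 0.41 beside an all-gene median near 0, and with TMM 4, 3 and 2. No gene of these lists was called lower under these scalings.

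The lists of energy metabolism and of the proteasome gave no calls with levels scaled to non-immunoglobulin UMIs, in cells sorted for low uptake of the glucose analog. Of 15 glycolysis genes, 23 of the citrate cycle, 54 of oxidative phosphorylation and 34 of the proteasome, 0 passed the rule in either direction. Their median log2 ratios were 0.30, 0.33, 0.31 and 0.41, and 0.12, 0.15, 0.12 and 0.22 without Jchain in the total. Scaled to all UMIs the medians were 0.68, 0.71, 0.68 and 0.78, beside 0.56 for all genes, and 5, 1, 5 and 1 genes of these lists were called higher. The oxidative phosphorylation list held other Atp5 genes but not Atp5g2 and Atp5l, which were called lower (log2 ratios -2.56 and -2.01). Both are among the library-dividing genes. Cox6a2, called lower at -2.58, was not on the list either, so the absence of calls covers the listed genes only. Gapdh had 341 CPM in B220+2NBDG- and 307 CPM in B220-2NBDG- cells, and Ldha, lactate dehydrogenase A, 136 and 85.3 CPM. The glucose transporter Slc2a1 was too low to test, with 34 and 36 UMIs (ratio 1.46, 0.889 to 2.41), and so was hexokinase Hk2, with 35 and 11 UMIs (4.93, 2.45 to 10.8).

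Smaller groups of calls were spread over other lists. Of 16 interferon-response genes 4 were higher and 0 lower, led by Isg15, a ubiquitin-like modifier, with 57.3 CPM in B220+2NBDG- and 18.6 CPM in B220-2NBDG- cells (3.08, 2.32 to 4.11); in the 2NBDG+ pair its log2 ratio was 0.34. Of 23 annexin and cytoskeleton genes Coro1a, an actin regulator of leukocytes (212 and 86.7 CPM), and the intermediate filament gene Vim (27.3 and 12.7 CPM) were higher. Of 20 cell cycle genes outside the rule Cks2, Ccnd2 and Fen1 were higher; Ccnd2, cyclin D2, had 186 and 77.4 CPM. Of 12 lipid synthesis genes Cyp51 and Insig1, both under sterol control, and Apoe were higher, and the choline kinase gene Chka was lower. Of 23 genes of the integrated stress response Atf5, a transcription factor, was lower, with 24.3 CPM in B220+2NBDG- and 71.0 CPM in B220-2NBDG- cells. Apoe, a lipid carrier abundant in macrophages, had 748 and 349 CPM in the 2NBDG- pair and 108, 29.7 and 7.95 CPM in the others. Its UMIs sat in few cells: after thinning, the top 10% of cells held 94.5% in the B220+ and 91.5% in the B220- library, with 148 and 296 UMIs in the highest cell of each. Its log2 ratio of 1.10 was 0.64 in thinned cells, in which the rule was no longer met.

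Of the 3584 genes tested in both pairs, 25 were called higher in B220+ cells of both (0.698%) and 14 lower (0.391%). The 2NBDG+ pair alone had 74 higher (1.98%) and 48 lower (1.29%) among 3734 tested. Of the 144 genes higher in the 2NBDG- pair, 111 were tested in the other pair, where 88 had the same sign and 5 were called in the opposite direction. Of the 78 lower genes 62 were tested, where 52 had the same sign and 4 were called opposite. Of all genes tested in both pairs, 60.4% lay above 0 in the 2NBDG+ pair. With the 19 genes counted in, 13 were called higher in the 2NBDG- and lower in the 2NBDG+ pair (0.363%) and 15 the reverse (0.419%). By the smaller of their 2 ratios, the leading genes higher in both were Gpx3 (log2 3.98 in the 2NBDG- and 4.63 in the 2NBDG+ pair), Cxcr3 (4.55 and 2.84), H2-Aa (2.65 and 2.68), H2-Eb1 (2.33 and 2.18), Cd2 (2.12 and 3.08) and H2-Ab1 (2.30 and 2.07). After them came 2610524H06Rik (1.94 and 1.92), Gmfg, an actin regulator of leukocytes (2.03 and 1.90), Gsto1, a glutathione transferase (1.71 and 2.06), and Sfn, which encodes 14-3-3 sigma (1.54 and 1.69). The leading lower genes were Ly6k (-2.17 and -2.67), Mt2 (-2.33 and -2.03), Spns3 (-3.57 and -1.81), Ggh (-2.26 and -1.64), the secreted ligand Wnt10a (-1.62 and -1.89), Cpq (-2.98 and -1.58), Ly6d (-1.54 and -1.37), Mgll (-2.50 and -1.28), the kinase gene Sgk3 (-1.31 and -1.25) and Oosp2 (-1.56 and -1.14). Bcl2 (-1.21 and -1.07) was lower in both as well. Slamf6, a lymphocyte adhesion receptor, was too low to test in the 2NBDG- pair, with 19.4 CPM in B220+2NBDG- and 14.9 CPM in B220-2NBDG- cells, and was called higher in the 2NBDG+ pair, with a log2 ratio of 3.31. The difference between pairs was not tested.

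**Figure D4:**
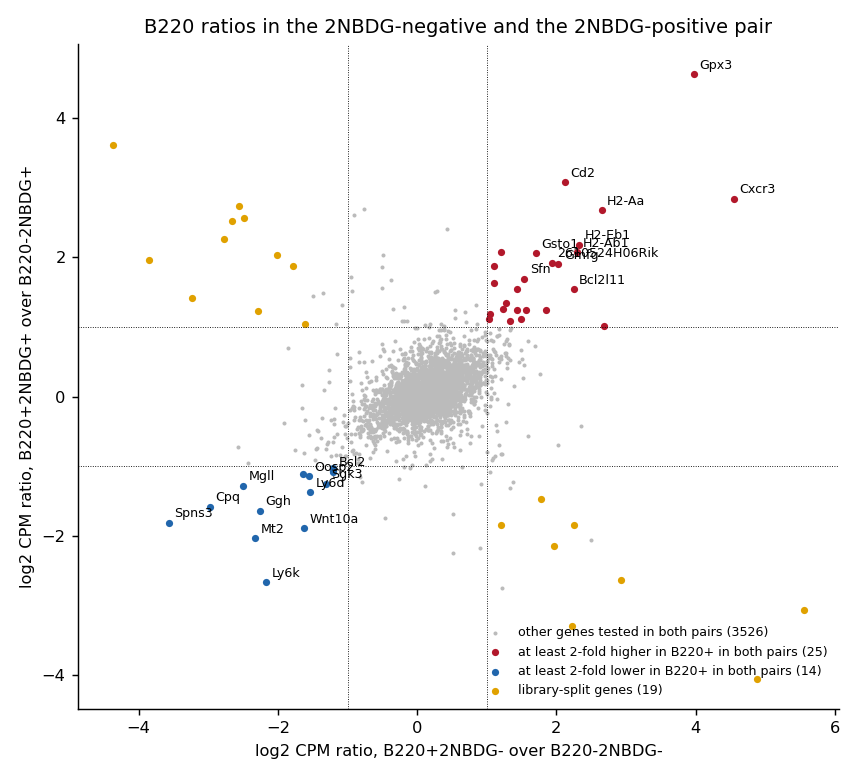
Log2 ratio of B220+ to B220- non-cycling IgM cells in the 2NBDG- pair (horizontal) and in the 2NBDG+ pair (vertical), 1 point per gene tested in both. Red marks the 25 genes called higher in both and blue the 14 lower in both. Yellow marks the 19 genes that divided the libraries, which by their definition lie where the signs of the pairs are opposite.

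The selection of non-cycling cells changed some lists and left others. Among all cells of the 2 libraries, 241 genes were higher (5.97%) and 126 lower (3.12%) of 4034 tested; among all IgM cells, 283 (7.03%) and 119 (2.96%) of 4026. Of the 152 and 89 calls in members, 97 and 73 were also made among all cells. The median of the cell cycle genes outside the rule was 1.35 among all cells, 1.28 among IgM cells and 0.19 among members, as the rule chose. Class II stood at 1.26, 1.28 and 1.44 in that order, and ER folding at 0.56, 0.57 and 0.62. Glycolysis stood at 0.63, 0.62 and 0.30 and the proteasome at 0.62, 0.66 and 0.41, both lowest among members. The 105 cycling IgM cells that were left out of the B220+2NBDG- library had 792 CPM of H2-Aa, against 729 CPM in its members, and 2133 against 2638 CPM of H2-Ab1. They had 26.7 CPM of Gpx3, against 96.4 CPM in members, 60.9 against 370 CPM of Prg2, and 0 UMIs of Spns3.

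**Figure D5:**
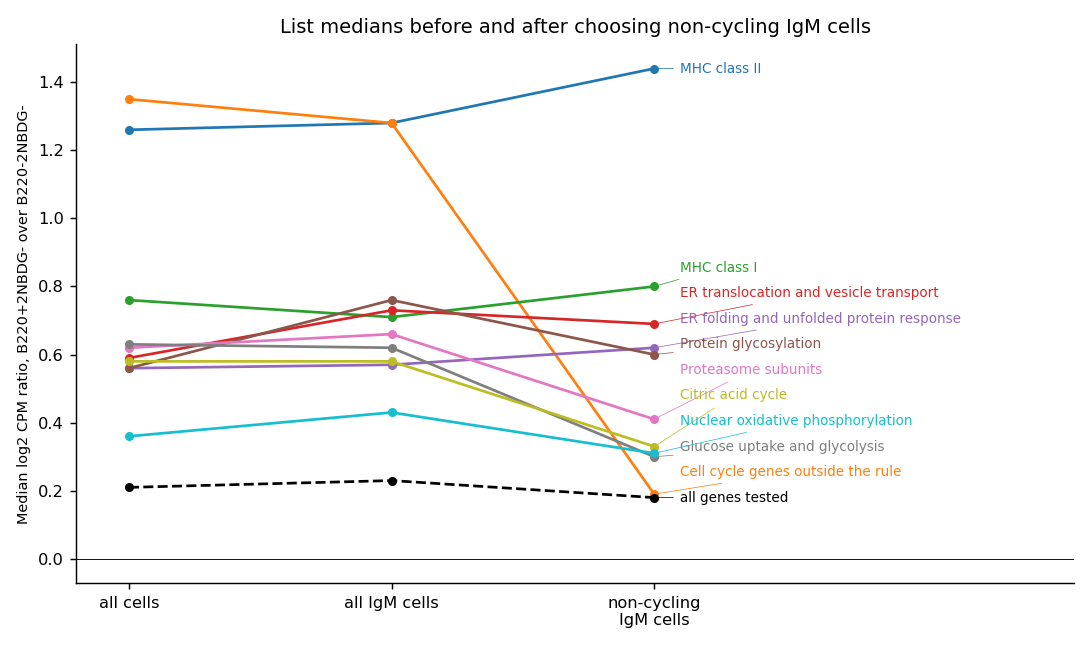
Median log2 ratio (B220+2NBDG- over B220-2NBDG-) of gene lists among all cells, all IgM cells and non-cycling IgM cells. The cell cycle list drops to 0.19 and MHC class II is 1.26, 1.28 and 1.44 over the 3 steps.

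Lambda light chain was rarer among B220+ than B220- members of the 2NBDG- pair. Of members with at least 10 UMIs of Igkc or Iglc2 and a dominant chain, 10 of 599 were lambda in the B220+2NBDG- library (1.67%, exact 95% binomial interval 0.803 to 3.05%) and 113 of 1022 in the B220-2NBDG- library (11.1%, 9.20 to 13.1%). In the other 3 libraries it was 1 of 435 (0.230%, 0.00582 to 1.27%), 13 of 549 (2.37%, 1.27 to 4.02%) and 4 of 292 (1.37%, 0.374 to 3.47%), so the B220-2NBDG- library stood alone. Lambda was read from Iglc2 alone. The kappa constant gene was 34.2% and 36.1% of all UMIs of members. With kappa cells alone, 151 genes were called higher and 87 lower.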

How the data were processed

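Each library was a droplet 3' single-cell RNA library of 1 pooled sample of sorted plasma cells. The deposited matrices hold raw UMI counts per gene and cell barcode, made by the authors with Cell Ranger 2.1 on GRCm38, per the submitters' processing notes. All deposited barcodes were used, and gene symbols, types and 1-based coordinates were taken by identifier from GENCODE M21, which held 32739 of the 33456 genes. Counts were summed over member cells and divided by their non-immunoglobulin UMIs (266 immunoglobulin genes left out) to give CPM. Ratios carry exact 95% conditional binomial intervals, and counts below 3 UMIs were raised to 3. PCR and capture error between libraries is not in these intervals. With 1 library per group no test was run.

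The members, the 25 programme lists and 13 marker lists (791 of 792 listed genes matched) were chosen with earlier results of these data known. Genes were named when they were among the 10 highest or lowest ratios outside the 19 library-dividing genes, among up to 10 per direction passing in both pairs, members of a list, or on a fixed list; Il4i1 and Cd3g were named after their values were seen. Some genes that this rule names are not reported here. Doublets were called with Scrublet and kept (2 and 9 members), with their removal as an alternative. The ratio code was checked on simulated counts. Python 3.11.15, numpy 2.4.6, scipy 1.17.1, pandas 2.3.3, scanpy 1.11.5 and matplotlib 3.10.9 were used, with R 4.3.3 and edgeR 4.0.16 for the TMM factors alone. Alternatives covered scaling, thinning, the filter on low counts, the member rule, doublets and other cell types.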

Additional observations from a re-analysis of the deposited data

Results flagged for a closer look

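Genes called at least 2-fold in opposite directions in the 2NBDG- and the 2NBDG+ pair were looked at again; the difference between the pairs was not tested. Of the 28 such genes, 19 were the genes that separated B220+2NBDG- and splenic B220-2NBDG+ cells from the other 3 libraries. Their definition places them in opposite directions in the pairs. The other 9 follow, with log2 ratios of B220+ over B220- cells in the 2NBDG- pair and then the 2NBDG+ pair. Higher in the 2NBDG- and lower in the 2NBDG+ pair were Gm10263 (2.50 and -2.06), Gm10221 (1.38 and -1.23), Rps26-ps1 (1.34 and -1.31), Rnaset2a (1.22 and -2.75) and Rpl24 (1.05 and -1.08). Lower in the 2NBDG- and higher in the 2NBDG+ pair were Fam214a (-1.49 and 1.44), Cox16 (-1.35 and 1.49), Isca1 (-1.17 and 1.04) and Wdr33 (-1.08 and 1.32). In each of these 9 genes, too, the B220+2NBDG- and splenic B220-2NBDG+ levels lay on one side of the other 3 libraries, short of the 2-fold gap that defined the 19. Cox16, for example, had 44.8 CPM in B220+2NBDG- and 114 CPM in B220-2NBDG- cells, with 99.5 CPM in B220+2NBDG+, 35.4 CPM in splenic B220-2NBDG+ and 84.8 CPM in bone marrow cells. Gm10263, Gm10221 and Rps26-ps1 are pseudogenes, whose reads may be shared with their parent genes.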

How the results depend on the processing

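The counts are of genes at least 2-fold higher and lower in B220+2NBDG- cells, then of those called in both pairs, which were 152, 89, 25 and 14. Scaled to all UMIs they were 327, 23, 11 and 6; without Jchain in the total 99, 179, 22 and 24; with no filter on low counts 800, 703, 123 and 128; at 50 CPM and 100 UMIs 111, 53, 14 and 9; and with the near bound of the interval past 2-fold 75, 44, 13 and 7. All IgM cells gave 283 higher genes. Cells thinned to equal depth gave 14 genes higher in both pairs, and cells without B-marker UMIs gave 12. In the other alternatives (0 cycling UMIs, at least 90% Ighm, at least 50 heavy-chain UMIs, kappa cells, a mean over cells, TMM, median of ratios, without Scrublet calls, T-marker cells or the 19 library-dividing genes) the 4 counts stayed within 1.5 times. Leaving out the 19 genes could not change the counts called in both pairs, because their definition places them in opposite directions in the pairs. Some removals were chosen after the data were seen. These were of cells with at least 2 T-marker UMIs other than Cd3g, of the top cell of each gene and of the 19 genes. All 1328 values of the 83 named genes past the rule kept their sign over 16 settings, 1236 stayed at least 2-fold, and 51 genes did so in each. These genes were at least 2-fold by choice. The changes of scaling shifted all log2 ratios alike, by at most 0.38, so they could not reverse a sign. Several other settings kept nearly the same cells, so the kept signs say little. A wider list of cycling genes was not run, because it left 41, 100, 19 and 33 members in the spleen libraries. No paired analysis was possible because each group was 1 library. Depth limits genes under about 25 CPM, Ciita, Slc2a1 and Hk2 among them.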

Other observations

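Il4i1, a secreted amino acid oxidase, was named after its values were seen. It had 68.0 CPM in B220+2NBDG- and 18.4 CPM in B220-2NBDG- cells (3.70, 2.81 to 4.91), and 1.38, 9.89 and 1.06 CPM in B220+2NBDG+ cells, in B220-2NBDG+ cells of the spleen and in bone marrow cells. In thinned cells 1 cell held 41 of its 61 UMIs in the B220+ library, and without the cell with most Il4i1 UMIs in each library the log2 ratio was 0.42, against 1.89 with all cells. Cd3g, a chain of the T cell receptor complex, had 38.4 CPM in B220+2NBDG- and 9.55 CPM in B220-2NBDG- cells while Trac, Cd4 and Cd8a were at 0 in the B220+ library. Its log2 ratio was 2.01 in all members and 0.98 with 0 cycling UMIs required. At least 2 UMIs of the T cell markers were found in 17 B220+ and 14 B220- members, and in 1 and 5 when Cd3g was not counted.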
